A study of Mus musculus with 10 samples.

Results

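The 5 gastrocnemius libraries of saline-injected diet-induced obese (DIO) mice are described here on their own, as the baseline state of this muscle in obesity. They were chosen by label only, and they are 5 of the 10 libraries of the series, with no library of a treated mouse used in any value. In the study, male wild-type C57BL/6J mice (C57BL/6JBomTac in the methods) received a high-fat diet (HFD, D12492i) from 9 weeks of age for 9 weeks. The methods state that all mice passed a set weight before they were put into groups. In the weights that the study lists, some control mice were below that limit on the first day. The mice were injected under the skin once per week for 14 weeks, while HFD continued. The injections held 0.9% saline (CTRL, the libraries used here) or an antisense oligonucleotide (ASO) against the microRNA miR-22. The design text of the series gives an age of 30 weeks, which is less than these spans add up to. All mice of the series were obese and on HFD, so no value here is a response to diet, and replicates are named CTRL 1 to CTRL 5 after the labels. Frozen bulk muscle was homogenized with all its cell types, so fewer cells of a type and less RNA per cell cannot be told apart.

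miR-22 was not inhibited in these mice. Its mature strand is shown because it is the target that the study set out to block, with the seed (bases 2 to 8) in capitals, as RefSeq gives it for the mouse:
mmu-miR-22-3p: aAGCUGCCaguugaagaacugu
Of the genes in the table, 0 are named Mir22 or Mir22hg, so the level of this microRNA was not measured here.

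The gastrocnemius is a calf muscle of mixed fibers. Fast fibers use their own isoforms of troponin, myosin and the calcium pump and depend mostly on glycogen and glucose, while slow fibers use a second set of isoforms and burn fatty acids in many mitochondria. Between the fibers lie capillaries, nerve branches with Schwann cells, resident macrophages, fibroblasts and, in obesity, adipocytes that store fat within and around the muscle, while the ends of the muscle merge into tendon.

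The deposited counts cover the last part of 3′UTRs, in segments of at most 500 bp, and levels are given as CPM, counts scaled to the same total for every library. The 5 libraries hold between 1606909 and 2116720 counts, with a median of 1782332, and a count of 3 corresponds to between 1.42 and 1.87 CPM. Of 21098 genes, 8435 (40.0%) had at least 3 counts in every library, which is called detected below. Segments that overlap other segments lose reads in the counting, 1827 genes keep no base of their own, and a gene at 0 is therefore not shown to be silent. CPM are not corrected for length, so levels of different genes are compared per kb of uniquely counted bases, and an order by CPM is an order of counts. Pearson's r of log2(CPM + 1) between pairs of libraries, across 4520 genes with a mean of at least 50 counts, lay between 0.801 (CTRL 1 and CTRL 3) and 0.961 (CTRL 4 and CTRL 5), and genes are not independent replicates. The share of reads on the far end of a gene also differed between libraries, since the log2 ratio of counts on the last segment of a gene over those upstream of it (the distal index) had a median of 0.47, 0.58, 0.10, -0.07 and -0.38 in CTRL 1 to CTRL 5, over 1277 genes. Its part in the results below was not tested.

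Transcripts of skeletal muscle were abundant in every library. Acta1, the actin of skeletal muscle thin filaments (segment 8:124618508-124618747, minus strand, GRCm39, 3′UTR), had the highest mean, with 45059, 49775, 28784, 39652 and 45078 CPM in CTRL 1 to CTRL 5, the order kept in all lists of values below. Its mean was 41669.7 ± 8045 CPM (SD, n = 5), and per kb of unique bases it also ranked first, with 173624 CPM per kb. Ckm, the muscle creatine kinase that buffers ATP, had 20403, 26072, 14898, 18122 and 21353 CPM. Tnnc2, the calcium sensor of fast troponin, had 14957, 18628, 10276, 12622 and 13776 CPM. CTRL 3 was the lowest library for all 3 of these genes and CTRL 2 the highest. Ttn, which encodes the giant spring titin, had 143, 180.0, 114, 122 and 84.8 CPM, whereas Tnnt3 and Mylpf were at 0 in all 5 libraries and Tnni2 had at most 2 counts. These 3 genes have 0, 10 and 5 unique bases, so they do not check the tissue.

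The 20 most abundant genes took 19.7% ± 1.95 of the counts (SD, n = 5; 17.1 to 22.5%), and 319 genes together took 50% of the mean counts. The second most abundant gene, Gm57854, had 36536 ± 5902 CPM (segment 7:126394407-126394906, minus strand, GRCm39), and that segment overlaps one of Aldoa by 184 bp on the same strand. Aldoa, the glycolytic aldolase of muscle, keeps 1 unique base and 0 counts, so the reads of these genes cannot be told apart. In CTRL 3 Gm57854 lay above Acta1 (29586 and 28784 CPM). Below Tnnc2 followed Tcap, which caps titin at the Z-disc, with 9910.1 ± 1277 CPM, Casq1, the calcium store protein of the fast-fiber reticulum, with 7807 ± 1420.4 CPM, and the stress-sensing ankyrin repeat gene Ankrd23 with 6927 ± 2182 CPM. Ldha (lactate dehydrogenase), Atp2a1 (the fast calcium pump SERCA1) and Car3 (carbonic anhydrase of muscle and fat) had 6904 ± 917, 6894 ± 1037 and 6756 ± 3504 CPM. The remaining genes were Vdac1, Hspb6, Pkm, Tle5, Myoz1, Fhl1, Tmem38a, Selenow, Scd1 and Gpd1, with means between 3263 and 5407 CPM. By CPM per kb, among genes with at least 200 unique bases, the order after Acta1 was Gm57854, Ckm, Ldha, Atp2a1, Tcap, Pkm, Casq1, Myoz1 and Car3. Most of the 20 lay close together between libraries, with the highest library at most 2.30-fold the lowest in 17 of them, and the 3 others were Fhl1 (3.13-fold), Car3 (4.42-fold) and Scd1 (174-fold).

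**Figure D1:**
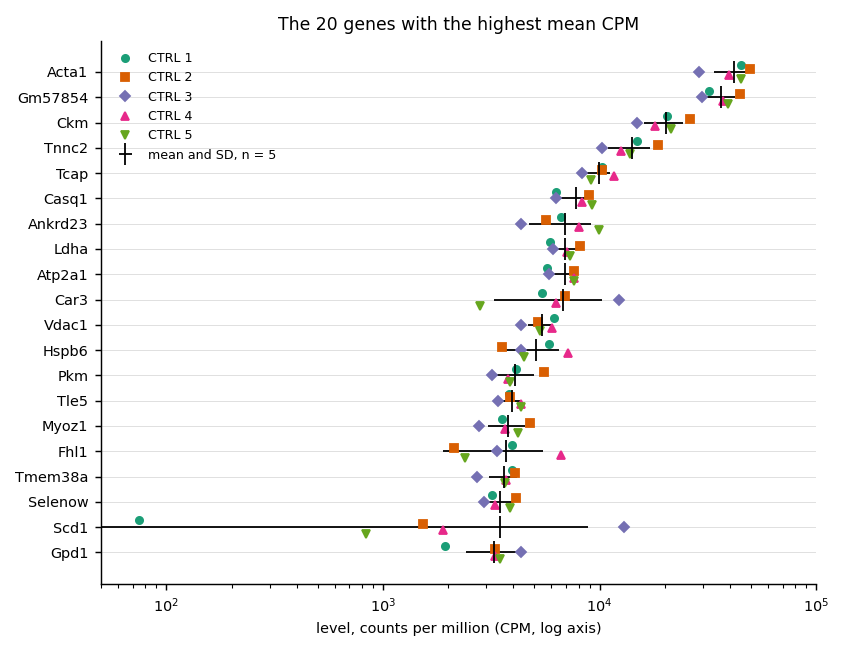
Level of the 20 most abundant genes in CPM on a log axis, with a symbol for each of the 5 CTRL libraries and a black line for the mean and SD (n = 5; the lower end for Scd1 runs off the axis). Scd1 spans 74.6 to 12985 CPM, while Tle5 stays between 3387 and 4336 CPM.

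Genes of fast fibers were high in every library and varied less than the slow-fiber genes below. Fast-fiber members with a mean of at least 50 counts had a median SD of 0.32 (log2), against 0.26 over all such genes. The list of 15 fast-fiber genes summed to 36158, 49523, 29629, 37557 and 41386 CPM, or 38851 ± 7319 CPM (SD, n = 5), and its highest library was 1.67-fold the lowest. Of its members 9 were detected, which is 60.0% against 40.0% of all genes, and CTRL 2 was highest for 8 of the 9, while it was highest for 13.0% of all detected genes. Casq1 had 6277, 8933, 6314, 8287 and 9222 CPM. Atp2a1 had 5699, 7660.0, 5819, 7637 and 7656 CPM. Both were lowest in CTRL 1 and CTRL 3. Actn3, the fast-fiber actinin of the Z-disc, had 2131, 4107, 1892, 2239 and 2831 CPM, with CTRL 2 above the rest. Myoz1, which tethers calcineurin at the Z-disc of fast fibers, had 3545, 4759, 2785, 3661 and 4223 CPM, and Pvalb, the calcium buffer of the fastest fibers, had 532, 859, 531, 698 and 784 CPM. Mybpc2 and Myom2, parts of the fast thick filament and the M-band, had means of 1936 ± 714 and 1025 ± 271 CPM. Myl1, an essential light chain, has 83 unique bases and at most 60 counts. The genes of fast myosin heavy chains could not be read, since Myh1, Myh2 and Myh4 have 2, 3 and 41 unique bases and at most 1, 4 and 3 counts per library.

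Genes of slow fibers differed between the libraries far more than those of fast fibers. The list of 11 slow-fiber genes summed to 3242, 565, 599, 1367 and 161 CPM, so that CTRL 1 was 20.1-fold CTRL 5, and this ratio of highest to lowest library was 8.47 without CTRL 1 and 5.73 without CTRL 5. Tnnc1, the slow and cardiac troponin C (segment 14:30933267-30933593, plus strand, GRCm39), had 912, 120.5, 137, 404 and 6.48 CPM. Myl2, the slow regulatory light chain, had 539.8, 101, 76.3, 212 and 11.8 CPM. In both, CTRL 1 came first, CTRL 4 second and CTRL 5 last, with CTRL 2 and CTRL 3 close to each other. Tpm3, the slow tropomyosin, had 564, 88.3, 78.5, 241 and 14.1 CPM. Myl3, the slow essential light chain, had 431, 71.8, 45.4, 95.2 and 3.53 CPM, the value of CTRL 5 resting on 6 counts. Myoz2, the slow partner of Myoz1, had 599, 125, 149, 291 and 64.2 CPM. Myh7, the slow myosin heavy chain that marks type 1 fibers, had 135, 15, 13, 38 and 0 counts, or 65.4, 7.09, 7.29, 23.6 and 0 CPM, so that CTRL 1 was at least 37.0-fold CTRL 5 with a floor of 3 counts per library. Of the 6 members with a mean of at least 50 counts, 5 had a highest library at least 4-fold the lowest on the log2(CPM + 1) scale, against 4.73% of the 4520 such genes. The exception was Atp2a2, the pump SERCA2 that smooth muscle and other cells also use, with 101, 35.0, 84.7, 65.97 and 50.1 CPM. Myl6b had 22.3, 16.1, 20.2, 32.4 and 11.2 CPM, Tnni1 had at most 13 counts, and Tnnt1 and Casq2 have no unique base. Other myosin heavy chains were near the floor: Myh3, Myh7b and Myh8 had at most 9, 14 and 6 counts, Myh6 had 0, and Myh13 has no unique base.

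Per kb of unique bases, the summed fast list was 20.4, 160.1, 90.5, 50.2 and 469 times the summed slow list in CTRL 1 to CTRL 5. The summed fast list thus led in every library, though not every pair below did. The ratio of the sums spanned 23.0-fold between CTRL 1 and CTRL 5, with 9.33-fold left without CTRL 1 and 7.85-fold without CTRL 5. Of the 12 isoform pairs, 6 gave a ratio in all 5 libraries, and in 3 of these both genes have at least 200 unique bases. For Atp2a1 over Atp2a2 the ratios of CPM per kb were 109.9, 428, 134, 226 and 299. For Myoz1 over Myoz2 they were 14.8, 95.3, 46.8, 31.4 and 164. For Tpm1, which is shared by fiber types and was low here, over Tpm3 they were 0.230, 1.48, 0.782, 0.411 and 10.6. In the pair of Myoz genes and the pair of Tpm genes CTRL 1 was lowest and CTRL 5 highest, as for the lists, whereas for the calcium pumps CTRL 2 was highest. The ratios for Tnnc2 over Tnnc1, with 141 unique bases on the fast gene, were 37.3, 352, 171, 71.1 and 4839.6. The other pairs with a ratio were Myl1 over Myl3 (0.0997 to 5.36) and Mybpc2 over Mybpc1 (61.5 to 266), each with under 200 unique bases on one side or both. Tpm1 over Tpm3 was below 1 in CTRL 1, CTRL 3 and CTRL 4, and Myl1 over Myl3 was below 1 in CTRL 1 to CTRL 4. The pairs Tnnt3 with Tnnt1, Tnni2 with Tnni1, Mylpf with Myl2, Myh4 with Myh7, Casq1 with Casq2 and Actn3 with Actn2 gave none.

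**Figure D2:**
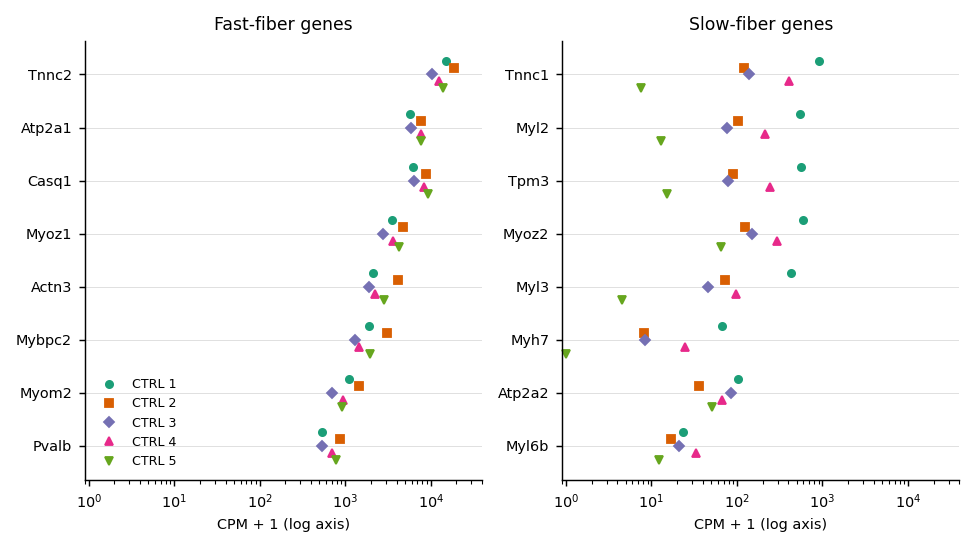
Level of 8 fast-fiber genes and 8 slow-fiber genes as CPM + 1 on log axes, with a symbol for each of the 5 CTRL libraries. The fast genes lie close together, while Tnnc1, Myl2, Tpm3, Myoz2 and Myl3 are highest in CTRL 1 and lowest in CTRL 5.

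A list of 10 further muscle genes was put together after their values were seen, so their order over the libraries is a description. Idh2, the mitochondrial isocitrate dehydrogenase, had 1469, 419, 374, 455 and 365 CPM. Lmod2, a thin filament length regulator, had 727, 192, 261, 537 and 250.4 CPM. Idh2 was high in CTRL 1, and Lmod2 in CTRL 1 and CTRL 4. The 10 genes of this list summed to 9924, 3964, 5232, 10090.2 and 4404 CPM. Though the sum was highest in CTRL 4, 9 of the 10 members were highest in CTRL 1, against 18.2% of all detected genes. The other 1 was highest in CTRL 4, against 14.9%. With the scaling of TMM or DESeq2 the sum had another highest library. Fhl1, a LIM protein of muscle, had 3954, 2126, 3356, 6664 and 2395 CPM and was highest in CTRL 4.

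Structural and metabolic genes of the fiber were abundant and differed less. The 23 genes of the sarcomere common to fiber types summed to 60829 ± 10073 CPM (SD, n = 5) and the 8 of the phosphagen system to 23172 ± 4631 CPM. The list of 20 genes of glycolysis and glycogen summed to 24248, 29853, 22709.6, 25758 and 25687 CPM, with 13 detected (65.0% against 40.0% of all genes), and Ldha had 5912, 8108, 6066, 7097 and 7335 CPM. Pkm, the pyruvate kinase, had 4093 ± 869 CPM (SD, n = 5), Gys1, the muscle glycogen synthase, 2460.5 ± 332 CPM, and Gpd1, which links glycolysis to glycerol, 3263 ± 857 CPM. Gapdh has 1 unique base and was at 0. Slc2a4, the insulin-responsive glucose carrier GLUT4, was among the steadier genes, with 1791, 1684, 1408, 1686 and 1445 CPM. The 11 genes of insulin and glucose handling were all detected, against 40.0% of all genes, and summed to 3659 ± 409 CPM, and Irs1, an adaptor of the insulin receptor, had 212, 308, 203, 119 and 108 CPM.

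Nuclear genes of oxidative phosphorylation (OXPHOS) were highest in the library with most slow-fiber transcripts. The list of 32 genes summed to 43818, 32465, 25694, 32746 and 29909 CPM. Of its 25 detected members, CTRL 1 was highest for 23, against 18.2% of all detected genes, and CTRL 3 was lowest for 23, against 20.5%. The size of the difference was modest, with a ratio of the highest to the lowest library of 1.71 for the sum. Atp5f1b, the catalytic subunit of ATP synthase, had 4385, 2967, 2419, 2927 and 2491 CPM. Cox6a2, the muscle subunit of cytochrome c oxidase, had 2659, 1688, 1273, 1793 and 1634 CPM. Cyc1, Uqcrc1, Sdha and Atp5po, of complexes III, II and V, had means of 2802 ± 459, 2218 ± 349, 2079.6 ± 356 and 1909 ± 504 CPM (SD, n = 5). CTRL 1 also had the highest slow-fiber sum and the second highest distal index, and their part in the OXPHOS level was not tested.

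Genes of fatty acid uptake and oxidation summed to 24279, 12157, 17693, 13570.2 and 11983 CPM over 22 members, of which 17 were detected (77.3% against 40.0% of all genes) and 12 of the 17 were highest in CTRL 1, against 18.2% of all detected genes. Fabp3, the fatty acid carrier of oxidative fibers, had 6197, 2247, 1365, 2331 and 2599 CPM. Pdk4, which slows glucose oxidation, had 2840.1, 1348, 1202, 1184 and 809 CPM. Cpt1b, the gate for fatty acids into mitochondria, had 1279, 608, 641, 872 and 812 CPM. For these 3 genes CTRL 1 lay above the other 4. Lpl (lipoprotein lipase) and Acsl1 (acyl-CoA synthetase), which adipocytes use too, were highest in CTRL 3, with 3285, 1627, 5751, 1807 and 1059 and 2567, 1536, 3590.2, 2224 and 1815 CPM.

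Adipocyte transcripts also differed widely between the libraries, mostly through CTRL 3. The 13 adipocyte genes summed to 985, 4093, 29690.3, 4597 and 2252 CPM, which places CTRL 3 at 30.1-fold CTRL 1, and the ratio of highest to lowest library was 4.67 without CTRL 3 and 13.2 without CTRL 1. Adipoq, the adipocyte hormone adiponectin (segment 16:22976345-22976778, plus strand, GRCm39), had 6, 517, 3263, 545 and 266 counts, or 2.91, 244, 1831, 339 and 157 CPM. Lep, the satiety hormone leptin, had 4, 541, 3702, 581 and 253 counts, or 1.94, 256, 2077, 362 and 149 CPM. In both, CTRL 3 was several times the next library and CTRL 1 nearly lacked the transcript. Plin1, the coat protein of adipocyte lipid droplets, had 1, 194, 1341, 180 and 97 counts. Scd1, the desaturase that makes oleic acid, had 74.6, 1529, 12985, 1893 and 831 CPM and so was both one of the 20 most abundant genes and one of the most variable. Fabp4, the fatty acid carrier of adipocytes and of capillary endothelium, had 860.1, 1675, 9958, 1565 and 877 CPM and did not drop out in CTRL 1. All 9 members with a mean of at least 50 counts passed the 4-fold mark, against 4.73% of such genes. Retn, Trarg1 and Aoc3 had their highest value in CTRL 3 (543, 409 and 654 CPM) and their lowest in CTRL 1 (3.39, 7.75 and 17.9 CPM). Cidec, which enlarges lipid droplets and keeps 9 unique bases, had 0.485, 27.9, 444, 51.7 and 40.1 CPM, and Adig, an adipogenesis regulator, 15.5, 11.8, 34.8, 8.71 and 11.2 CPM. Ucp1, which marks brown and beige fat, had 0, 0, 1, 0 and 4 counts, Cfd had at most 1, and Pparg has no unique base.

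Genes of lipid synthesis and lipid droplets had the same highest library as the adipocyte genes. Fasn, the fatty acid synthase, on a list of 11 lipogenic genes made after their values were seen, had 11.1, 122, 1218, 158 and 77.8 CPM. That list summed to 295, 2164, 17259, 2605 and 1307 CPM, a ratio of 58.5 between highest and lowest library that was 8.83 without CTRL 3 and 13.2 without CTRL 1. It shares Scd1 with the adipocyte list, so the 2 lists are not separate. Scd1 alone held 74.6, 1529, 12985, 1893 and 831 CPM of these sums. The 12 lipid droplet genes, set without the most adipocyte-specific ones, summed to 921, 828, 4480.1, 1172 and 1029 CPM, with CTRL 3 highest for all 9 detected members, against 30.7% of all detected genes. The ratio of highest to lowest library was 5.41 and was 1.42 without CTRL 3. Dgat2, the last enzyme of triglyceride synthesis, had 403, 299.5, 2138, 456 and 361 CPM, Lipe, the hormone-sensitive lipase, 48.5, 104, 677, 129 and 107 CPM, and Plin2, a droplet coat of many cells, 44.1, 99.2, 513, 103 and 63.0 CPM. Across these genes, the 4 libraries other than CTRL 3 overlapped closely for Dgat2 and were ordered with CTRL 1 last for Lipe and Plin2.

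**Figure D3:**
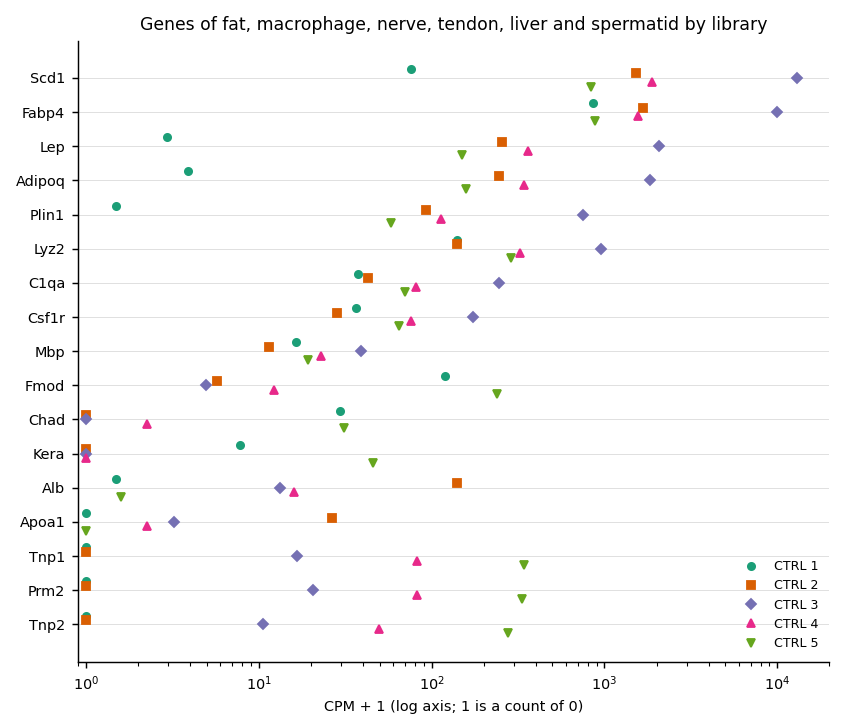
Level of 17 genes of fat, macrophages, nerve, tendon, liver and spermatids as CPM + 1 on a log axis, with a symbol for each of the 5 CTRL libraries; a value of 1 is a count of 0. Fat and macrophage genes are highest in CTRL 3, tendon genes in CTRL 1 and CTRL 5, liver genes in CTRL 2 and spermatid genes in CTRL 5, while Mbp stays between 10.4 and 38.2 CPM.

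Macrophage genes were highest in the same library as fat genes. The list of 22 summed to 369, 399, 2459, 879 and 799 CPM, a ratio of 6.67 between the highest and the lowest library and of 2.38 without CTRL 3. CTRL 3 was highest for all 14 detected members, against 30.7% of all detected genes. Lyz2, the lysozyme of myeloid cells, had 140.0, 139, 957, 322 and 287 CPM. C1qa, a complement component made by resident macrophages, had 36.3, 42.0, 244, 80.3 and 68.9 CPM, and C1qb and C1qc had 31.98, 29.8, 237, 58.5 and 77.8 and 36.3, 48.2, 272, 109.5 and 99.0 CPM. Csf1r, the receptor for macrophage growth factor, had 35.4, 27.4, 173, 75.3 and 63.6 CPM, and Cd68, a lysosomal marker, 5.33, 5.67, 65.6, 18.7 and 17.7 CPM. The order CTRL 3 first, CTRL 4 and CTRL 5 next, CTRL 1 and CTRL 2 last held for these 6 genes. Adgre1 has 4 unique bases and was at 0. The adipocyte list and the macrophage list both had CTRL 3 highest and CTRL 1 lowest, and how far one accounts for the other was not tested.

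T and NK cell and granulocyte genes left few counts. The T and NK cell list of 12 summed to 2.91, 5.20, 12.3, 4.98 and 7.07 CPM, with none of its members detected, and the granulocyte list to at most 7.85 CPM, with 1 of 8 detected. These are 0% and 12.5% of the members, against 40.0% of all genes. Only 7 of the 12 and 3 of the 8 have at least 200 unique bases, so low counts are not shown to mean few cells. The B and plasma cell list summed to 185, 563, 387, 211 and 487 CPM, and Ighm, the heavy chain of IgM, made up nearly all of the sum with 180.3, 550.4, 375, 203 and 471 CPM, whereas Igkc, the kappa light chain, had 3.88, 10.4, 8.42, 8.09 and 13.0 CPM, and the B cell receptor gene Cd79a and the B cell antigen Ms4a1 had at most 2 counts. Mast cell genes summed to 14.5, 6.14, 43.2, 32.4 and 28.9 CPM, led by the protease Mcpt4, and antigen presentation genes to 5.81, 11.3, 48.8, 13.1 and 13.0 CPM, where H2-Aa, H2-Ab1 and Cd74 have at most 21 unique bases. Interferon-responsive genes, of which 7 of 9 were detected (77.8% against 40.0% of all genes), summed to 96.9, 90.2, 237, 165 and 118 CPM, with CTRL 3 again highest.

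Fibroblast and matrix genes lay close together in 4 libraries and higher in CTRL 3. The 22 genes summed to 1533, 1599.6, 4768, 2283 and 1973 CPM, a ratio of 3.11, or 1.49 without CTRL 3, and CTRL 3 was highest for 15 of the 17 detected, against 30.7% of all detected genes. Dpt, a collagen-binding protein of loose connective tissue, had 189, 386, 1522, 538 and 319.9 CPM. Col4a1 and Col4a2, the basement membrane collagens, had 117, 98.3, 454, 168 and 189 and 205, 195, 589, 243 and 173 CPM. Lum, a collagen-binding proteoglycan, was flatter with 136, 141, 236, 157 and 181 CPM. Pdgfra, the receptor that marks fibro-adipogenic progenitors, had at most 7 counts, and Dcn has no unique base.

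Tendon genes separated the libraries in another way, with CTRL 1 and CTRL 5 apart from the rest. The list of 9 summed to 363, 241, 89.8, 149 and 553 CPM, with a ratio of 6.16, and of 3.70 without CTRL 3 and 4.04 without CTRL 5. Fmod, a collagen-organizing proteoglycan (segment 1:133975516-133976015, plus strand, GRCm39), had 244, 10, 7, 18 and 403 counts, or 118, 4.72, 3.93, 11.2 and 237 CPM. Chad, a matrix protein of cartilage and tendon, had 59, 0, 0, 2 and 51 counts, and Kera, keratocan, had 14, 0, 0, 0 and 76 counts. Comp had 14, 0, 2, 6 and 36 counts and Tnmd, which marks tendon cells, 4, 0, 1, 2 and 23 counts. CTRL 1 and CTRL 5 held nearly all counts of Fmod, Chad and Kera. CTRL 1 had most slow-fiber transcripts and CTRL 5 fewest, and a link between tendon and slow-fiber levels was not tested. Thbs4, which muscle fibers also make, had 188, 231, 75.7, 114 and 184 CPM with CTRL 2 highest, and Scx had 13.1, 5.20, 8.42, 17.4 and 21.2 CPM. Mkx had at most 1 count and Tnc had 0.

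Summed endothelial, smooth muscle and blood genes each differed by at most 1.70-fold between libraries. The 12 endothelial genes summed to 984, 578, 793, 747 and 879 CPM, with 10 detected (83.3% against 40.0% of all genes), and Cdh5, the junction protein of endothelium, had 97.4, 65.2, 80.2, 85.3 and 81.9 CPM. Aqp1, the water channel of capillaries and red cells, had 417, 249, 306, 398 and 438 CPM. Smooth muscle and pericyte genes summed to 1499, 1026, 1007, 1167 and 1001 CPM, led by Rgs5, a pericyte regulator of G proteins, with 1032, 657, 512, 575 and 470.1 CPM, while Mcam had 8.24, 10.9, 82.5, 21.2 and 25.3 CPM and was highest in CTRL 3. Blood genes summed to 1249.7, 1497, 1558, 958 and 1014 CPM, mostly Hbb-bs, an adult beta globin, with 984, 1101, 1136, 739 and 779 CPM. Globin genes are near-identical copies, so their split is uncertain. The 6 lymphatic genes summed to 35.4 to 88.4 CPM, a ratio of 2.49 that was 1.41 without CTRL 2.

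Transcripts of nerve were few. The 18 Schwann cell genes summed to 124, 131, 261, 165 and 171 CPM, a ratio of 2.11 that was 1.39 without CTRL 3, and 8 were detected, a share of 44.4% near the 40.0% of all genes. Pmp22, a myelin protein, had 19.4, 20.3, 67.9, 31.1 and 32.4 CPM, and Mbp, the myelin basic protein, 15.5, 10.4, 38.2, 21.8 and 18.3 CPM. Pmp22 and Mbp were highest in CTRL 3, and Pmp22 is also made by fibroblasts. Cnp, an enzyme of myelinating cells, had 15.5, 19.4, 39.3, 36.1 and 24.7 CPM. Of 11 neuronal genes whose transcripts would come from axons, 3 were detected, or 27.3% against 40.0% of all genes. Nefm, Nefh and Chat had 0 counts, and Nefl and Gap43 had at most 2. The list summed to 34.9, 13.7, 21.9, 31.7 and 35.9 CPM, most of it from members not named here. Genes of the neuromuscular junction, which the fiber nuclei under the synapse express, summed to 103, 163, 117, 126 and 118 CPM. Chrnb1, a subunit of the acetylcholine receptor, had 56.2, 114, 71.8, 81.5 and 83.1 CPM, and Lrp4, the agrin receptor, 19.9, 13.7, 24.7, 24.3 and 12.4 CPM. Genes that rise after denervation were flat between libraries, with a sum of 182 ± 12.6 CPM, the fetal receptor subunit Chrng at 0 and Gadd45a at 42.6, 58.1, 46.6, 59.1 and 44.8 CPM. Satellite cell genes summed to 109 ± 11.6 CPM, with Pax7, the stem cell factor, at 11.1, 8.98, 5.05, 8.09 and 6.48 CPM and Cdh15 at 42.6, 48.7, 34.8, 44.8 and 30.0 CPM.

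**Figure D4:**
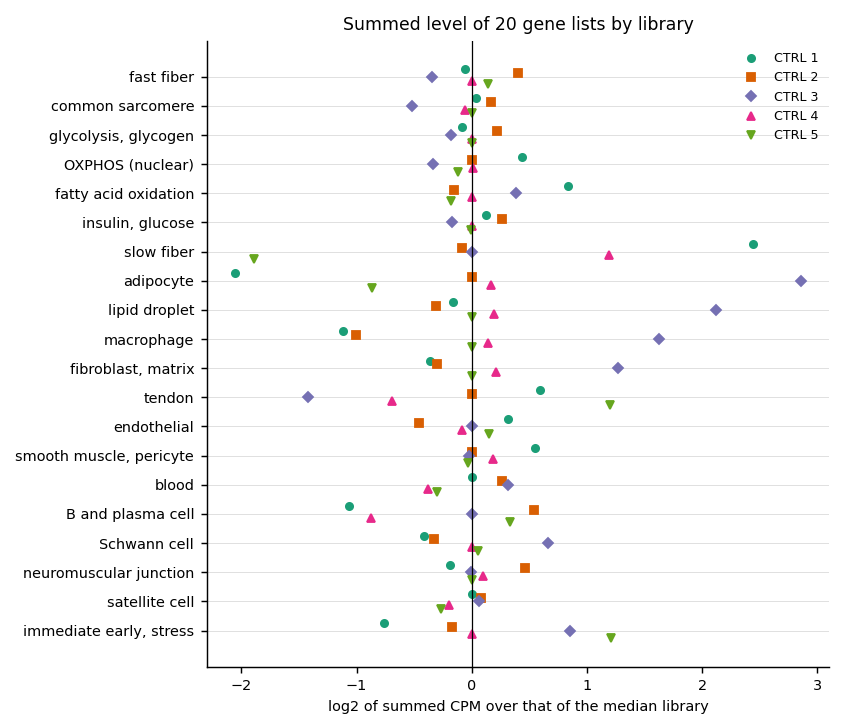
Summed CPM of 20 gene lists in each of the 5 CTRL libraries, as log2 of the value over that of the median library. Of the 20 lists drawn, the slow-fiber, adipocyte, lipid droplet, macrophage and tendon lists spread widest, and the satellite cell list stays within a ratio of 1.27 between its highest and lowest library.

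Genes that the study names were read here at their level without treatment. Myog, the late myogenic regulator, had 24, 31, 28, 28 and 31 counts, or 11.6, 14.6, 15.7, 17.4 and 18.3 CPM (mean 15.5 ± 2.60 CPM, SD, n = 5). Myod1, the myoblast determination factor, had 44.6, 42.0, 62.3, 101 and 68.9 CPM and was highest in CTRL 4. Ppargc1a, the coactivator of mitochondrial biogenesis, had 85.3, 70.9, 46.0, 64.7 and 51.8 CPM, Opa1, which fuses the inner mitochondrial membrane, 213, 171, 144, 179 and 193 CPM, and Nrf1, a regulator of respiratory genes, 9.21, 9.45, 11.8, 16.2 and 16.5 CPM. The ratio of highest to lowest library was 1.48 for Opa1 and 1.85 for Ppargc1a. Tet2, a DNA demethylase, had 39, 19, 20, 23 and 12 counts, Sirt1, a deacetylase, 5, 9, 4, 10 and 8 counts on 53 unique bases, and Ddit4, an inhibitor of mTOR, 26, 39, 42, 26 and 59 counts. Foxo3, a regulator of autophagy, had 56.2, 52.4, 41.5, 51.7 and 55.4 CPM. Foxo1 was at 0 in every library, as was Gapdh with 1 unique base, and Myh7 and Myh4 are given above. Of the 14 genes 9 were detected, or 64.3% against 40.0% of all genes. Around Myog and Myod1, all 14 myogenic regulators were detected, against 40.0% of all genes, and Myf6, the regulator of mature fibers, had 365, 386, 333, 356 and 319.9 CPM, a ratio of 1.21 between highest and lowest library. Tead1 and Mef2c, which bind muscle gene enhancers, had 64.4, 40.2, 100.4, 227 and 228 and 233, 246, 278, 519 and 693 CPM, highest in the 2 libraries with the lowest distal index, whose part in this was not tested.

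The summed stress genes were highest in CTRL 5. Hspa1a and Hspa1b, the inducible HSP70 genes and near-identical copies, had 56.7, 34.0, 35.9, 64.7 and 230.4 and 62.0, 27.9, 28.1, 72.2 and 333 CPM, both with CTRL 5 far above the rest. Fos and Egr1, immediate early genes, had 28.6, 119, 249, 139 and 109 and 21.3, 93.1, 238, 49.2 and 259.8 CPM, and both were lowest in CTRL 1. The 13 genes of this list summed to 318, 479, 976, 540.2 and 1246 CPM, with a ratio of 3.91 that was 2.60 without CTRL 1. Cish, a target of growth hormone and cytokine signaling through STAT5 (segment 9:107178687-107179186, plus strand, GRCm39), had 274, 740, 313, 3 and 6 counts, or 133, 349.6, 176, 1.87 and 3.53 CPM, and so nearly vanished in CTRL 4 and CTRL 5. Ostn, the muscle hormone musclin, had 185, 394, 13.5, 14.9 and 54.2 CPM, and Rasd2, a small GTPase, 186, 471, 16.3, 15.6 and 287 CPM. Chac1, an enzyme of the amino acid stress response, had 164, 458, 308, 69.1 and 87.2 CPM. The 4 genes Cish, Ostn, Rasd2 and Chac1 were highest in CTRL 2. The list of 10 that holds them was drawn up after their values were seen, so this order is a description, and its sum had a ratio of 6.25 between highest and lowest library, or 2.74 without CTRL 2 and 3.56 without CTRL 4. The 10 genes of muscle-secreted factors summed to 173, 166, 672, 146 and 105 CPM, a ratio of 6.37 that was 1.65 without CTRL 3. Its members Angptl4, an inhibitor of Lpl, and Igf1, a growth factor, had 101, 108, 469.6, 84.0 and 37.1 and 41.2, 35.4, 171, 38.0 and 49.5 CPM, both highest in CTRL 3. The adipocyte and macrophage lists were also highest in CTRL 3, and which cells made these transcripts was not tested. Genes of atrophy and autophagy summed to 3149.7 ± 338 CPM (SD, n = 5) over 17 members and those of the circadian clock to 1134 ± 106 CPM over 14, with ratios of 1.26 and 1.29 between highest and lowest library.

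Transcripts of organs other than muscle were found in some of the libraries, those of spermatids in CTRL 3 to CTRL 5 and those of liver mainly in CTRL 2. Tnp1, Tnp2 and Prm2, which pack the DNA of late spermatids, had 0, 0, 28, 130 and 581 counts, 0, 0, 17, 78 and 469 counts and 0, 0, 35, 130 and 561 counts. In CPM they reached 342, 276 and 331 in CTRL 5, at least 235-fold, 190.1-fold and 227-fold the libraries at 0 with a floor of 3 counts per library. Of the counts of the 3 genes in CTRL 3, CTRL 4 and CTRL 5, Tnp1 made up 35.0%, 38.5% and 36.1%, Tnp2 21.2%, 23.1% and 29.1%, and Prm2 43.8%, 38.5% and 34.8%. Of 20 spermatid genes in a list made after these values were seen, 16 had a count in some library and 4 had none. Over all 21098 genes, 7536 had none. Of the 20, 0 were detected in every library, against 40.0% of all genes. The list summed to 0, 0.472, 55.0, 255 and 1179 CPM. The 10 genes of the epididymis were at 0 in all 5 libraries. Alb, serum albumin of the liver, had 1, 293, 22, 24 and 1 counts, or 0.485, 138, 12.3, 14.9 and 0.589 CPM, with CTRL 2 highest, and Apoa1 and Mup20, also secreted by hepatocytes, had 0, 54, 4, 2 and 0 and 0, 59, 8, 4 and 0 counts. The hepatocyte list, also written afterwards, summed to 0.969, 228, 24.7, 27.4 and 2.36 CPM. Genes of skin and bone summed to at most 11.8 CPM, those of kidney to at most 1.42 CPM and those of mesothelium to at most 1.87 CPM. How these transcripts came into the libraries was not tested.

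Across all genes, the spread between the 5 libraries was smaller than in the lists of fat and slow-fiber genes. Of 4520 genes with a mean of at least 50 counts, 1937 (42.9%) had all libraries within 1.5-fold, the median ratio of highest to lowest library was 1.56 on the log2(CPM + 1) scale, and the median SD was 0.26 (log2). The biological coefficient of variation, the spread beyond counting error as edgeR estimates it per gene without shrinkage, had a median of 0.161, against 0.227 with edgeR's default shrinkage and 0.212 with DESeq2. A total of 214 genes (4.73%) passed the 4-fold mark, and 87 did without CTRL 3. CTRL 3 was the highest library for 154 of the 214, while it was highest for 30.7% of all detected genes. CTRL 1 was the lowest for 132 of the 214, while it was lowest for 24.6% of all detected genes. Without the genes of the adipocyte, lipogenesis, spermatid, hepatocyte and slow-fiber lists, 190 of 4494 genes passed the mark. At least 2-fold above the median of the other 4 libraries were 57, 18, 323, 40 and 60 genes in CTRL 1 to CTRL 5, and at least 2-fold below it 135, 103, 21, 17 and 43 genes. CTRL 3 thus had the most genes above the others and CTRL 1 the most below.

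The largest SDs of log2(CPM + 1) belonged to Tnp1 (3.77), Prm2 (3.76), Tnp2 (3.55), Lep (3.49), Tmem45b (3.29), Plin1 (3.28), Adipoq (3.26), Cish (3.23), Hp (3.07) and Cidec (2.95). Tmem45b and the haptoglobin gene Hp, which adipocytes and liver express, are on no list, and both had their highest value in CTRL 3 (491 and 1155 CPM) and their lowest in CTRL 1. Tmem45b had 0, 176, 875, 120 and 64 counts and Hp had 6, 636, 2058, 365 and 178 counts. The smallest SDs belonged to Hsbp1, Pnpla8, B230219D22Rik, Eif1b, Opa3, Rraga, Wdr43, Gtf2b, Tprg1l and Ddx23, between 0.03 and 0.05. These genes were picked as the extremes of 4520, and edgeR gave each the same biological coefficient of variation, 0.0099. Their order is therefore not a ranking of stable genes. Hsbp1, a partner of heat shock factor 1, had 549.5, 576, 570.0, 549 and 567 CPM. Pnpla8, a calcium-independent phospholipase, had 371, 369, 359.6, 352 and 356 CPM, and Opa3, a mitochondrial protein, 185, 192, 186, 194 and 183 CPM.

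**Figure D5:**
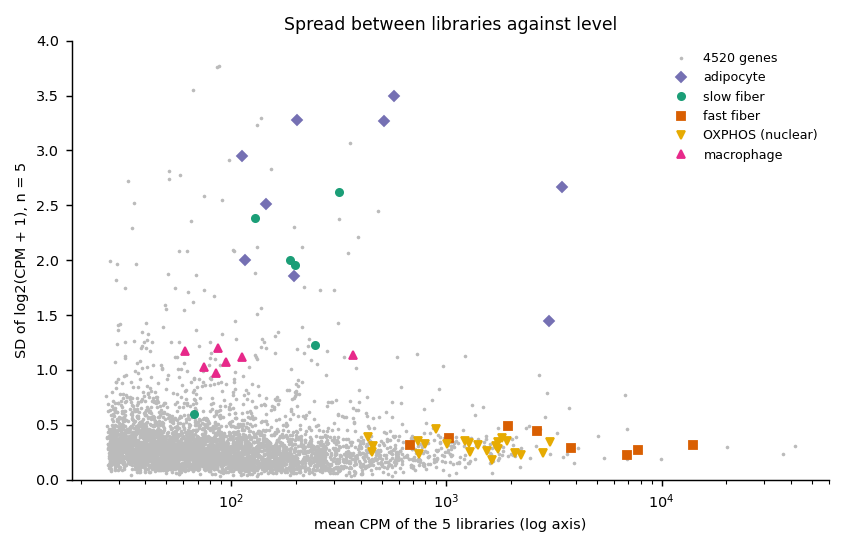
SD of log2(CPM + 1) over the 5 CTRL libraries against the mean CPM on a log axis, 1 point for each of 4520 genes with a mean of at least 50 counts, with members of 5 lists in color. Adipocyte genes and most slow-fiber genes lie far above the bulk, which has a median SD of 0.26, and fast-fiber and OXPHOS genes lie within it.

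For each library, the 5 genes farthest above and below the median of the other 4 are named here, apart from any that are not reported. CTRL 1 stood above it for Fmod, Myl3, Tnnc1, Tpm3 and Ostn, and below it for Lep, Tmem45b, Adipoq, Plin1 and Hp. CTRL 2 stood above it for Alb, Cish, Ostn, Gm4841 and Rasd2, and below it for Prm2, Tnp1, Tnp2, Dkk3 and Fmod. CTRL 3 stood above it for Arxes2, A530016L24Rik, Cidec, Fasn and Ifi27l2a, an interferon-responsive gene with 15.5, 215, 1842, 239.6 and 103 CPM, and below it for Rasd2, Fmod, Ostn, Tceal7 and BC048679. CTRL 4 stood above it for Tnp1, Prm2, Tnp2, Peg3 and Tmem100, and below it for Cish, Rasd2, Ostn and Gm4841, among others. CTRL 5 stood above it for Tnp2, Tnp1, Prm2, Fmod and Hspa1b, and below it for Cish, Tnnc1, Myl3, Myl2 and Tpm3. Peg3, an imprinted gene, had 3.88, 5.67, 51.6, 64.1 and 35.3 CPM, and Dkk3, a secreted Wnt modulator, 17.0, 9.45, 89.2, 79.0 and 138 CPM, both lowest in CTRL 1 and CTRL 2.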

How the data were processed

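RNA was sequenced from gastrocnemius muscle, and the 5 CTRL libraries were analyzed. The authors trimmed reads with fastp, aligned them with STAR to GRCm39 and counted read pairs with featureCounts over the ends of 3′UTRs, and deposited whole-number counts per segment that are not normalized. The settings of featureCounts that the methods list include no strand option, and the use of strand is not described further. The table also holds results of the authors' own comparison and 4 other per-sample columns, which were not used.

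Of 52423 segments, 52361 were matched by transcript identifier to GENCODE mouse genes and summed per gene, and the 62 others held 0.0255% of the counts. The table holds 0 mitochondrial segments. Coordinates are those of the segment with most counts, in GRCm39, counted from 1. CPM were computed on the total of each library, and spread was measured as the SD of log2(CPM + 1) over genes with a mean of at least 50 counts. List ratios per kb are summed CPM over summed unique kb, a form chosen after Pvalb was seen to keep 6 unique bases. The biological coefficient of variation was estimated with edgeR 4.0.16 (R 4.3.3) without shrinkage, because, tested on simulated data, the default gave too low a spread for the most variable genes. The unshrunk estimate came out somewhat low for the other genes, and the default somewhat high. DESeq2 1.42.0 gave alternative size factors and dispersions. Other steps used Python 3.11.15, pandas 2.3.3, numpy 2.4.6, scipy 1.17.1 and matplotlib 3.10.9.

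With 1 group there is no comparison between groups and no p-value. The labels number the samples but do not say that each is a separate animal, so the spread may be technical in part. Floors of 3 counts cover counting error only, and depth was between 1606909 and 2116720 counts. Named genes are the 20 most abundant, the first 3 and the 6 highest members of each list (every member of lists of at most 15), the 10 most and 10 least variable, the 5 farthest above and below in each library, sarcomeric myosins, fiber pairs and genes the study names, of which some are not reported here. The members and lists were chosen with earlier results of these data known. A list of 10 muscle genes that holds Idh2, another of 10 that holds Cish, and the lists of lipogenesis, spermatid, liver, epididymis, kidney and mesothelium were added after the values were seen. Alternatives were other scalings, filters, pseudocounts, length rules, the most distal segment alone, counts drawn down to the smallest library and each library left out.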

Additional observations from a re-analysis of the deposited data

Results flagged for a closer look

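In 8 of 129 values examined (82 genes, 43 lists and summary values), the gap between 1 library and its nearest neighbor took up a larger share of the whole range of the 5 libraries than Dixon's 95% limit, which chance passes in about 1 of 20 groups of this size. For genes and lists the share was taken on log2(CPM + 1), not on the CPM printed above, and it is given in parentheses. The gap was above the other 4 libraries in CTRL 3 for the lipid droplet list (0.794), the list of muscle-secreted factors (0.732), Fabp4 (0.728), Dgat2 (0.786), Col4a2 (0.725) and Igf1 (0.789). Foxo3 was set apart in CTRL 3 on the low side (0.720). Idh2 was set apart in CTRL 1 on the high side (0.842), and this gene was picked after its values were seen. The genes and lists share the same 5 libraries and are not independent of each other.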

How the results depend on the processing

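No paired analysis was possible because only 1 group is used. On a total without the 20 most abundant genes the mean fast-fiber sum was 48609 CPM. With the last counted segment alone for every gene it was 61729 CPM, the 20 most abundant genes took 27.4% of counts, the median fast over slow ratio was 171 and 138 genes passed the 4-fold mark, while 68 of 82 described genes kept their highest library, and the others were Acta1, Atp2a1, Pvalb, Tnnc1, Fhl1, Cidec, Mbp, Pmp22, Comp, Col4a1, Mcam, Cish, Tead1 and Mef2c. Without a length correction the median ratio was 49.5. With a mean of at least 10 counts 702 genes passed the 4-fold mark, and with no filter 1695 did, with a median SD of 0.40 and a median coefficient of variation of 0.278. As a mean of log2(CPM + 1), the ratio of highest to lowest library was 11.1 for slow-fiber, 3.50 for macrophage and 1.38 for Schwann cell genes. Leaving out each library in turn gave ratios of 5.73 to 20.1 for slow-fiber, 4.67 to 30.1 for adipocyte, 2.38 to 6.67 for macrophage, 3.70 to 6.16 for tendon and 1.39 to 2.11 for Schwann cell genes, 7.85 to 23.0 for fast over slow, and 87 to 223 genes past the 4-fold mark. The median coefficient of variation was 0.161, or 0.212 with DESeq2 and 0.227 with the default shrinkage of edgeR, which was added after the data were seen. With the scaling of TMM or DESeq2, 77 of 82 genes kept their highest library. Genes with few unique bases cannot be read at any depth, and unique bases of segments with few reads lower the values per kb.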
